A study of Mus musculus with 10 samples.

Results

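The respiratory chain genes of the nucleus were followed in mouse embryonic stem cells (mESCs) that lacked a subunit of the histone deacetylase complex MiDAC. They were taken by symbol: *Nduf* followed by a, b, c, s or v and a number for complex I, *Sdha* to *Sdhd* for complex II, symbols starting with *Uqcr* for complex III, *Cox4* to *Cox8* with a letter from a to c for complex IV, and *Atp5* with a letter from a to l for complex V. Of the 34591 genes in the table, 80 met this rule, 37 for complex I, 4 for complex II, 8 for complex III, 16 for complex IV and 15 for complex V, and 1 further symbol, *Atp5l-ps1*, was left out because it is marked as a pseudogene. The annotation also types *Atp5l2*, which the rule keeps, as a pseudogene. The rule does not reach every subunit: *Cox4i1*, *Cyc1*, *Ndufab1* and *Atp5o*, for example, are spelled in other ways and are counted apart near the end.

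The respiratory chain passes electrons from NADH through complex I, or from succinate through complex II, to ubiquinone, then through complex III and cytochrome c to complex IV, where oxygen is reduced. Complexes I, III and IV pump protons across the inner mitochondrial membrane, and complex V, the ATP synthase, lets them flow back and makes ATP. Most subunits are encoded in the nucleus and imported, whereas mitochondrial DNA encodes a few core subunits of every complex except complex II. Naive mESCs respire actively, and several complex IV subunits have isoforms that are typical of muscle or testis.

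RNA-seq libraries came from C57/BL6 Bruce-4 mESCs kept in 2iL medium, which holds LIF and inhibitors of GSK3 beta and MEK, and all 10 libraries shared these conditions. WT cells were compared with *Dnttip1* KO cells (clones D2A7 and D1E6) and *Elmsan1* KO cells (clones E2E8 and E2G7), with 2 libraries for WT and for each clone. DNTTIP1 and ELMSAN1 are scaffold subunits of MiDAC, and each KO clone grew from 1 sorted cell after CRISPR/Cas9 editing that left indels in the targeted gene. Whether the WT cells were also cloned was not stated in the sources used here, nor which library was sequenced on which of several Illumina instruments.

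Values are FPKM, fragments scaled by exon length and library size, divided by a factor per library that ranged from 0.965 to 1.01. The library totals recovered from the FPKM values ranged from 3.11e+07 to 8.65e+07 fragments, with the WT libraries as the smallest pair. The targeted *Dnttip1* was at 8.45 and 8.35 FPKM in WT, at 4.57 and 4.55 in D2A7 and at 2.58 and 2.60 in D1E6. *Elmsan1*, listed under its older symbol *C130039O16Rik*, was at 5.73 and 5.34 FPKM in WT and at 4.62 to 5.13 in the *Elmsan1* KO libraries, all below WT. In the *Dnttip1* KO libraries *Elmsan1* was at 7.78 to 8.67 FPKM, above WT. *Dnttip1* was at 6.43 to 7.77 FPKM in the *Elmsan1* KO libraries, below WT, so a level below WT is not particular to the targeted line. Of 10 mESC markers, 9 reached 10 FPKM, including *Pou5f1*, *Sox2* and *Nanog*, whereas *Fut4* stayed near 0. Their summed level was 1511 to 1563 FPKM in WT, 1400 to 1589 in *Dnttip1* KO and 1193 to 1371 in *Elmsan1* KO, and its part in the results was not tested. No fibroblast, endoderm, mesoderm or muscle marker reached 1 FPKM in any library, and 1 neural marker did, at up to 1.56 FPKM. The 2 libraries of every line differed by more than the counting noise, so each was kept as its own sample. The p-values measure the spread between libraries, and libraries of 1 clone do not replicate the knockout itself.

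The genes of the respiratory chain were abundant in WT mESCs. Of the 80, 28 had a WT mean of at least 100 FPKM, 46 lay between 10 and 100, 2 lay between 1 and 10, and 4 were under 1. The median WT level was 48.3 FPKM for complex I, 68.4 for complex II, 128 for complex III, 142 for complex IV and 103 for complex V. In the plot of WT levels by complex the low end is held largely by isoforms that are typical of other tissues.

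**Figure D1:**
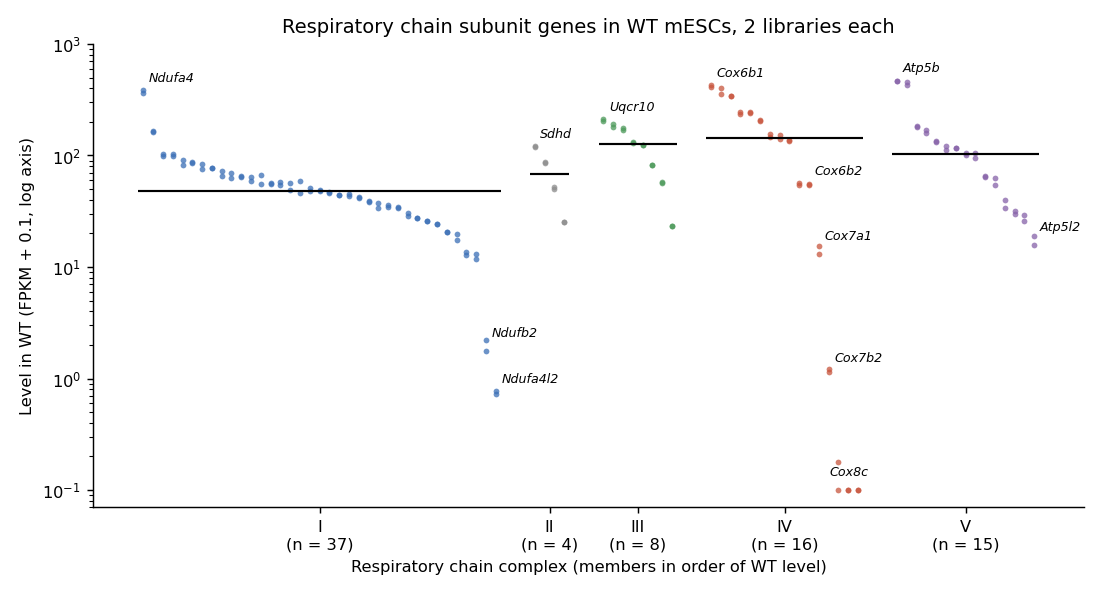
Level in WT mESCs of the 80 respiratory chain genes, ordered within each complex, on a log axis as FPKM + 0.1. Each point is 1 of 2 WT libraries and the black lines are medians. Of the 80 genes, 74 have a mean of at least 10 FPKM, and the genes near the bottom of complex IV are *Cox6a2*, *Cox8b* and *Cox8c*.

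In complex I the highest level was that of *Ndufa4*, at 378 ± 17.6 FPKM (SD, n = 2). *Ndufa4* carries a complex I name, but its protein is now placed in complex IV. The lowest was that of its paralogue *Ndufa4l2*, known as a gene that hypoxia induces, at 0.653 ± 0.0392 FPKM. *Ndufb2*, an accessory subunit of the membrane arm, was next lowest at 1.88 ± 0.308 FPKM. FPKM values here divide by all exon bases that the annotation gives a gene, 5628 for *Ndufb2* against 492 for *Ndufa4*, so a gene with long annotated exons reads low on this scale. Of the 36 neighbouring pairs in the order of complex I, 15 had overlapping WT libraries, so the order inside the middle of the range was not resolved.

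Complex II has 4 subunits and all were measured well. *Sdhd*, a membrane anchor, led with 121 and 118 FPKM in WT. *Sdha*, the flavoprotein that oxidizes succinate, followed with 86.5 and 86.0 FPKM. *Sdhb*, which holds the iron-sulfur clusters, had 51.9 and 49.5 FPKM, and *Sdhc*, the other anchor, had 25.2 in both libraries. The WT libraries of neighbours did not overlap on this scale, but the order depends on the length used. Per length of the shortest coding transcript, *Sdhc* came first at 275, followed by *Sdhd* at 120, *Sdha* at 115 and *Sdhb* at 99.4. The *Sdhc* value divides by a transcript of only 298 bases, against 3250 annotated exon bases, so it may be overstated.

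Complex III ran from *Uqcr10*, a small accessory subunit, at 208 ± 4.25 FPKM (SD, n = 2) to *Uqcrq*, the small subunit VII, at 23.1 ± 0.140 FPKM. Complex IV had the widest range, from *Cox6b1* at 417 ± 13.1 FPKM to *Cox8b* and *Cox8c*, which were at 0 in both WT libraries. Complex V ran from *Atp5b*, the catalytic beta subunit, at 466 ± 2.77 FPKM to *Atp5l2* at 17.2 ± 2.08 FPKM. Levels of 10 genes are less certain because more than 25% of the 100-base windows of a transcript also occur elsewhere in the genome: *Atp5g2* (100% of windows), *Atp5l* (83.5%), *Atp5g1* (67.4%), *Cox7c* (51.4%), *Atp5h* (40.1%), *Cox7a2l* (40.0%), *Ndufb4* (38%), *Cox5b* (34.6%), *Ndufs5* (27.9%) and *Ndufs3* (27.5%).

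Tissue-typical isoforms were present at very different levels. Those typical of muscle were close to absent, with 22 fragments of *Cox6a2* and 8 of *Cox8b* over all 10 libraries. *Cox8c*, typical of testis, had 3 fragments in all. *Cox7b2*, also typical of testis, gave 291 fragments and *Ndufa4l2* 305. By contrast, the muscle isoform *Cox7a1* stood at 14.3 ± 1.71 FPKM in WT and the testis isoform *Cox6b2* at 54.9 ± 0.851 FPKM (SD, n = 2). Of the COX6B pair, *Cox6b2* thus made up 11.6% ± 0.164 of the summed FPKM in WT, and *Cox7a1* made up 4.0% ± 0.509 of the COX7A set. The c-ring of the ATP synthase is encoded by *Atp5g1*, *Atp5g2* and *Atp5g3*, which made up 11.7% ± 0.272, 50.5% ± 2.39 and 37.8% ± 2.12 of their sum in WT. These shares rest on shared sequence, as above, and on length: per length of the shortest coding transcript they were 36.7%, 19.2% and 44.1%, so which gene leads was not resolved.

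Promoters were read for what the subunit genes share. RefSeq windows of 300 bases, from 250 before to 50 after the start of a gene (GRCm38.p6), were found for 66 of the 80 genes. They were searched on both strands for sites of 4 factors known to act on respiratory genes: NRF1 (GCGCA, any 1 base, then GCGC), GABPA (CCGGAAG), YY1 (ATGGCGGC) and ESRRA (AAGGTCA). At least 1 of these occurred in 32 of the 66 windows (48.5%), against 18.8% of all 27025 windows and 22.9% of the 17492 windows of protein-coding genes. The NRF1 letters occurred in 15 windows (22.7%, against 6.60% of protein-coding genes) and the GABPA letters also in 15 (22.7%, against 11.9%). The YY1 letters occurred in 6 windows (9.09%, against 3.19%), all 6 in complex I, and the ESRRA letters in 8 (12.1%, against 4.08%), of which 4 were in complex V. The median GC content was 57.3% in the 66 windows and 56.3% in those of protein-coding genes. A match describes letters in these windows and does not show binding.

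The windows of *Sdhd* and *Atp5k* are printed because they were the only pair among the 66 with letters of 3 of the factors. They are given 5′ to 3′ on the strand of the gene in lower case, with the letters of a match in capitals.
Sdhd (chr9:50603800-50604099, minus strand, 1 NRF1, 1 GABPA and 1 ESRRA match): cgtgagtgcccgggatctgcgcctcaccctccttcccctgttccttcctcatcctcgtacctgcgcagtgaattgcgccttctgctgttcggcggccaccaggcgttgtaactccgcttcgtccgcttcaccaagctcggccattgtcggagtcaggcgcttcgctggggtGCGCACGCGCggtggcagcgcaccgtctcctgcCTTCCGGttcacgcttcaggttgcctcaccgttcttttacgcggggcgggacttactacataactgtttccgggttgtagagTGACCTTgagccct
Atp5k (chr5:108434350-108434649, minus strand, 1 NRF1, 1 GABPA and 1 ESRRA match): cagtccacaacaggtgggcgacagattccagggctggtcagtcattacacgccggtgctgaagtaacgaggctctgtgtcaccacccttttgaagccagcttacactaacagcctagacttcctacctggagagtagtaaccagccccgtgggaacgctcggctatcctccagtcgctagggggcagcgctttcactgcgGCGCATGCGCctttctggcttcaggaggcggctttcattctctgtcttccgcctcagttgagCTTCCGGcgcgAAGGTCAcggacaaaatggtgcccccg

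The windows of *Ndufa4*, *Ndufa5*, *Cox7a1* and *Cox6b2* are printed because these 4 genes carried the differences between clones described further on. Only that of *Ndufa5* held a match, to the NRF1 letters, again in capitals.
Ndufa4 (chr6:11907401-11907700, minus strand): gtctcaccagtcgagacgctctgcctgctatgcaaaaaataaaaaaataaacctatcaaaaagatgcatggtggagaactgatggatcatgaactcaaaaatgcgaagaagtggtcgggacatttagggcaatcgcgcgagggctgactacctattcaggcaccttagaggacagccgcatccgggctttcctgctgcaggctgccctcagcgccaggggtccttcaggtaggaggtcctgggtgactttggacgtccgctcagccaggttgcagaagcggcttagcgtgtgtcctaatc
Ndufa5 (chr6:24527477-24527776, minus strand): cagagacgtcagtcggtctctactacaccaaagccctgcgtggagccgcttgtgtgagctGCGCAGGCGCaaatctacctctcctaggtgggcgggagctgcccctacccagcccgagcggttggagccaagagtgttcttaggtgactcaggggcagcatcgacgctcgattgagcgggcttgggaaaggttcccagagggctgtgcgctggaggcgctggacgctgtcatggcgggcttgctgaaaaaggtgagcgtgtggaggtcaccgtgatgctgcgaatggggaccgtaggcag
Cox7a1 (chr7:30183921-30184220, plus strand): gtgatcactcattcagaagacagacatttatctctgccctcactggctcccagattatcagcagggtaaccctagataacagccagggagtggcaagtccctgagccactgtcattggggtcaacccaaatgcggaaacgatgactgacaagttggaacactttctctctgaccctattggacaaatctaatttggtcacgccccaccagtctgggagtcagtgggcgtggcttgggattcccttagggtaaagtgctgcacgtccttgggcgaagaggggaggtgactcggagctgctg
Cox6b2 (chr7:4753045-4753344, minus strand): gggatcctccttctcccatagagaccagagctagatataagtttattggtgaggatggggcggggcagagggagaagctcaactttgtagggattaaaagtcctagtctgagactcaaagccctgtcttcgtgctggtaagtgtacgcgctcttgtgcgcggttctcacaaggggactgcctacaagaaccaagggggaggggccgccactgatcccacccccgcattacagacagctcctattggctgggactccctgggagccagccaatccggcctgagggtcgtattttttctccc

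The total of the nuclear respiratory RNA hardly moved between lines. Summed over the 80 genes, WT had 7919 and 7918 FPKM, D2A7 8007 and 7940, D1E6 7902 and 7714, E2E8 8025 and 7737, and E2G7 7875 and 8000. The knockout libraries lay on both sides of WT, and the largest sum was 1.04 times the smallest. In bulk RNA a change in the share of cells and a change in RNA per cell cannot be told apart.

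**Figure D2:**
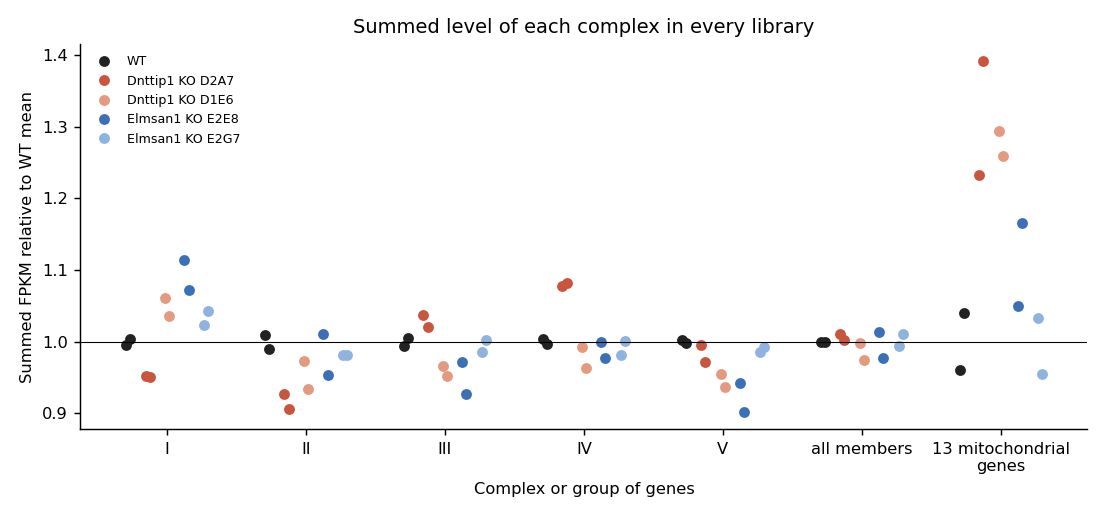
Summed FPKM of each complex, of all 80 genes and of the 13 protein-coding genes of mitochondrial DNA in every library, divided by the WT mean; each point is 1 library and the colours mark the 5 lines. The sum over all 80 genes stays within 7714 to 8025 FPKM, whereas the mitochondrial genes are above WT in the 4 *Dnttip1* KO libraries.

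By complex the sums moved apart a little more. With *Ndufa4* counted in complex I by its name, the *Dnttip1* KO clones went opposite ways from WT in complexes I, III and IV. Complex I summed to 2202 ± 12.7 FPKM in WT (SD, n = 2), to 2095 ± 3.70 in D2A7 and 2308 ± 40.0 in D1E6, and to 2407 ± 64.2 in E2E8 and 2275 ± 32.0 in E2G7. Only D2A7 was below WT, and this pattern rests on *Ndufa4*. Without it the 36 other genes summed to 1824 ± 4.87 FPKM in WT, 1775 ± 5.65 in D2A7, 1764 ± 25.5 in D1E6, 1843 ± 35.8 in E2E8 and 1770 ± 33.8 in E2G7, so that D1E6 and E2G7 were below WT as well. Complex IV summed to 2389 ± 11.6 FPKM in WT and to 2579 ± 6.99 in D2A7, while the other lines lay between 2336 and 2367. These sums leave out *Ndufa4*, whose protein is now placed in complex IV, so the direction of D1E6 there depends on the placement too. Complex V was at 2064 ± 5.70 FPKM in WT, and its lowest line was E2E8 at 1904 ± 59.0. Complex II was at 282 ± 3.81 FPKM in WT and lowest in D2A7, at 258 ± 4.24, and the means of complex III lay between 932 and 1011 FPKM in all lines. These sums were not tested.

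The comparison of *Dnttip1* KO with WT asked whether loss of the MiDAC scaffold changes RNA levels. A gene was called where the fold change was at least 1.5 and the unadjusted p of limma's moderated test was under 0.01, the thresholds used in the study. Of the 80 genes, 77 were high enough to be tested and 0 were called, against 6.5% of the 17435 genes tested. Of the 77, 6 had an unadjusted p under 0.01 and 15 under 0.05, against 2331 and 4756 of the 17435. A voom fit to the recovered fragments also called 0. At an adjusted p under 0.05 (limma, Benjamini-Hochberg over all genes), 0 were higher and 1 was lower, against 5.18% and 4.28% of all genes. The median log2 fold change was -0.04, against 0.02 for all genes, with 22 genes above 0 and 55 below. At a WT mean of at least 10 FPKM, the medians were -0.05 for 74 respiratory genes and -0.02 for all 5852 genes. There, 53 and 3228 were below 0, and 0 and 176 were called. For 72 of the 77, the 95% confidence interval lay within a 1.5-fold change either way, against 48.6% of all genes, and among genes with a WT mean of at least 10 FPKM this held for 71 of 74 respiratory genes and 4727 of 5852 in all. All 4 knockout libraries were above both WT libraries for 6 genes (21.1% of all genes) and below both for 20 (20.7%).

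*Cox6b2*, the testis isoform of a subunit that faces the intermembrane space, was the gene that passed. It had 54.3 and 55.5 FPKM in WT, 40.0 and 45.2 in D2A7, and 40.3 and 39.2 in D1E6. All 4 knockout libraries were lower than WT, and the groups did not overlap. The log2 fold change was -0.42 ± 0.07 (SE, adjusted p = 0.0201, limma). Its ubiquitous partner *Cox6b1* had a log2 fold change of 0.21 ± 0.08 that did not pass (adjusted p = 0.168). *Cox6b2* did not pass when the correlation within lines was estimated (adjusted p = 0.237, limma). Nor did it when either WT library (0.153 and 0.155) or D1E6 replicate 1 (0.0514) was left out.

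In complex I, 8 of 37 genes were above 0 and 29 below, with a median log2 fold change of -0.06. *Ndufs1*, the largest core subunit, had 41.8 and 42.5 FPKM in WT, 37.9 and 37.0 in D2A7, and 37.3 and 36.2 in D1E6. Its groups did not overlap, and at a change of -0.18 ± 0.04 its adjusted p was 0.0504. *Ndufb3*, a small membrane arm subunit, was alike in size, at -0.17 ± 0.04 (adjusted p = 0.0551). In complex II, *Sdhd* was at -0.18 ± 0.07 (adjusted p = 0.169) and *Sdha* at -0.12 ± 0.04 (adjusted p = 0.130). In complex III, *Uqcrfs1*, the Rieske iron-sulfur protein, had a log2 fold change of 0.25 ± 0.07 (SE) at an adjusted p of 0.0917. *Uqcrc2*, a core protein, was at -0.15 ± 0.06 (adjusted p = 0.171). In complex IV, *Cox7b*, a small X-linked subunit, was at -0.13 ± 0.05 (adjusted p = 0.155). In complex V, *Atp5h*, the d subunit of the stalk, was at -0.18 ± 0.05 (adjusted p = 0.0585), and *Atp5g1* at 0.10 ± 0.05 (adjusted p = 0.265). None of these passed the adjusted threshold.

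The comparison of *Elmsan1* KO with WT asked the same for the other scaffold. It shares its WT libraries with the first comparison, so the pair of results is not independent. Again 77 genes were tested and 0 called, against 6.42% of 17205, and again 0 with voom. An unadjusted p was under 0.01 for 7 and under 0.05 for 19 of the 77, against 2399 and 4787 of the 17205. At an adjusted p under 0.05, 4 genes were higher, against 5.61% of all genes, and 1 was lower, against 4.89%, so the 5.19% of respiratory genes that were higher lay near the share of all genes. The median log2 fold change was -0.05, against 0.00 for all genes, with 26 genes above 0 and 51 below. At a WT mean of at least 10 FPKM, the medians were close, at -0.05 for 74 respiratory genes and -0.04 for all 5852 genes. There, 49 and 3425 were below 0, and 0 and 165 were called. The 95% interval lay within a 1.5-fold change for 72 of 77, against 49.1% of all genes. At a WT mean of at least 10 FPKM this held for 71 of 74 respiratory genes and 4768 of 5852 in all. Knockout libraries lay above both WT libraries for 10 genes (21.3% of all genes) and below both for 18 (21.8%).

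**Figure D3:**
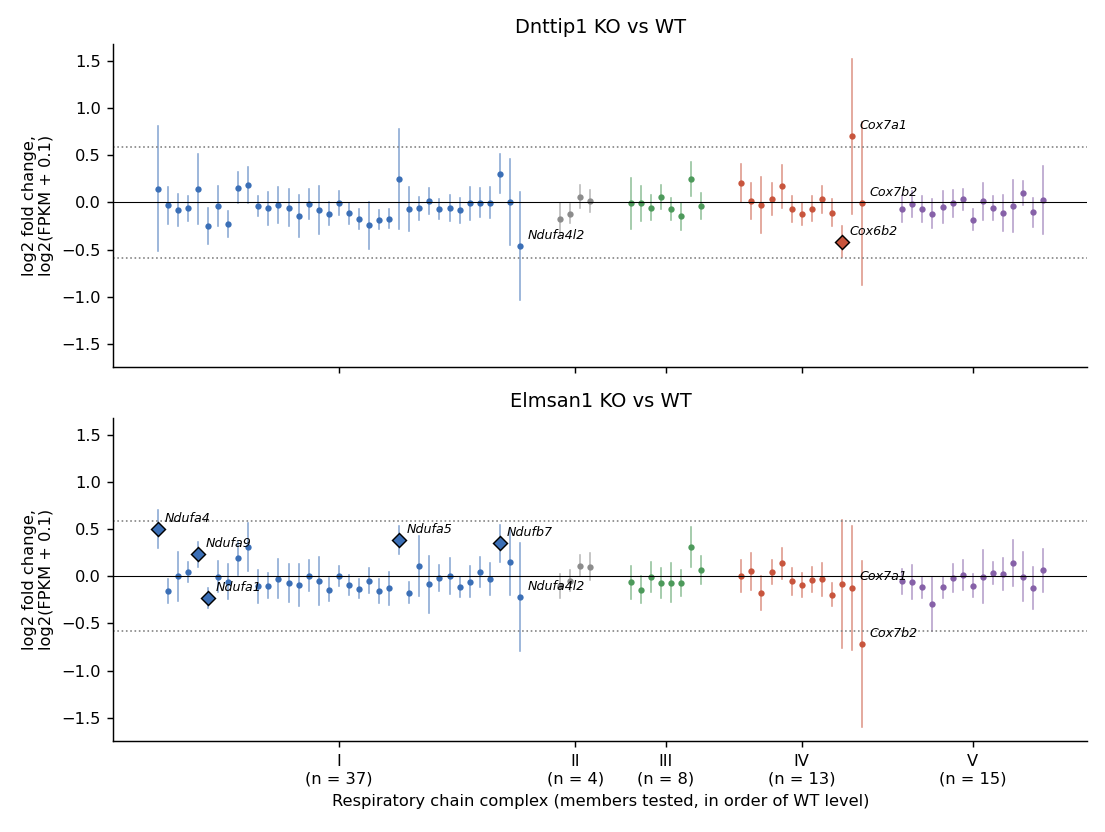
Log2 fold change against WT of the 77 respiratory chain genes tested, by complex, on log2(FPKM + 0.1), with the 95% confidence interval of each; dotted lines mark a 1.5-fold change and diamonds an adjusted p under 0.05 (limma). The diamonds are *Cox6b2* in *Dnttip1* KO, and *Ndufa4*, *Ndufa9*, *Ndufa1*, *Ndufa5* and *Ndufb7* in *Elmsan1* KO.

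All 5 genes that passed belong to complex I by name. They are 13.5% of its 37 genes, near the 13.8% of all genes with a WT mean of at least 10 FPKM. *Ndufa4* had 365 and 390 FPKM in WT, 584 and 544 in E2E8, and 506 and 504 in E2G7, a log2 fold change of 0.50 ± 0.08 (SE, adjusted p = 0.0169). *Ndufa5*, an accessory subunit of the matrix arm, rose from 33.8 and 37.6 FPKM to 47.4, 44.6, 46.7 and 47.6 (0.38 ± 0.06, adjusted p = 0.0152). *Ndufa9*, which sits where the matrix arm meets the membrane arm, rose from 90.6 and 82.3 FPKM to 102, 100, 104 and 99.2 (0.23 ± 0.06, adjusted p = 0.0486). For each, every knockout library was above both WT libraries.

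*Ndufb7*, a membrane arm subunit on the intermembrane side, rose from 12.9 and 11.6 FPKM to 14.4, 15.9, 15.3 and 16.8 (0.35 ± 0.08, adjusted p = 0.0461). *Ndufa1*, an X-linked subunit needed for assembly of the membrane arm, fell from 86.6 and 85.4 FPKM to 74.7, 71.0, 73.4 and 74.0 (-0.23 ± 0.04, adjusted p = 0.0253). In *Dnttip1* KO its log2 fold change was -0.25 ± 0.08 and did not pass (adjusted p = 0.106). None of the 5 passed when either WT library was left out, nor with an estimated correlation within lines. With that correlation the adjusted p (limma) ran from 0.214 for *Ndufa4* to 0.540 for *Ndufa9*. *Ndufa1*, *Ndufa9* and *Ndufb7* also did not pass with voom, with no variance trend or with any 1 of the 4 *Elmsan1* KO libraries left out.

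Outside complex I no gene passed in *Elmsan1* KO. The smallest p-values in complex IV were those of *Cox6c*, at -0.19 ± 0.05 on the log2 scale (adjusted p = 0.0683), and *Cox5a*, at -0.18 ± 0.07 (adjusted p = 0.187). *Uqcrfs1* was at 0.31 ± 0.09 (adjusted p = 0.0777), with 57.8 and 56.4 FPKM in WT and 70.6, 62.1, 73.8 and 76.4 in the knockout. *Uqcrb*, a ubiquinone-binding subunit, was at -0.14 ± 0.06 (adjusted p = 0.186). In complex II, *Sdhb* was at 0.11 ± 0.05 (adjusted p = 0.175) and *Sdhd* at -0.11 ± 0.05 (adjusted p = 0.251). In complex V, *Atp5k*, the small e subunit, was at -0.29 ± 0.12 (adjusted p = 0.168) and *Atp5g2* at -0.12 ± 0.05 (adjusted p = 0.165).

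The genes that rose in *Elmsan1* KO lie on chromosomes whose other genes were shifted too. *Ndufa4* (chr6:11850373-11857446, NCBIM37), *Ndufa5* (chr6:24468666-24478013) and *Ndufa9* (chr6:126771881-126799162) are on chromosome 6, and *Ndufb7* (chr8:86090570-86095525) is on chromosome 8. Over 504 genes of chromosome 6, each at 1 FPKM or more in every library, the median log2 ratio to WT was -0.08 in D2A7, 0.42 in D1E6, 0.38 in E2E8 and 0.29 in E2G7. The 4 respiratory genes there, which also include *Ndufb2*, had medians of -0.13, 0.43, 0.30 and 0.32 in the same lines. On chromosome 8 the median of 615 genes was 0.36 in D2A7, 0.36 in D1E6, 0.34 in E2E8 and 0.35 in E2G7. The 2 respiratory genes there, *Ndufb7* and *Ndufa13*, had medians of 0.23, 0.23, 0.28 and 0.26.

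**Figure D4:**
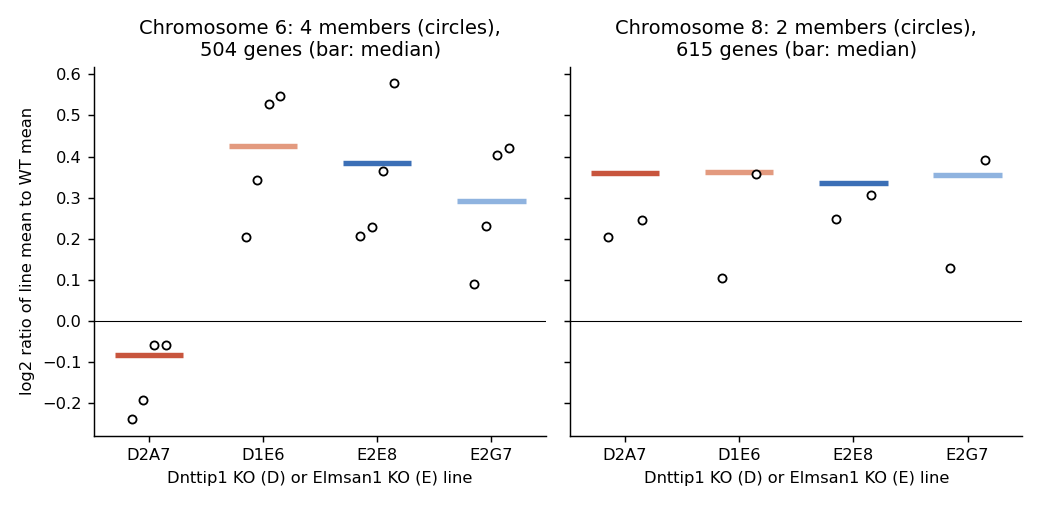
Log2 ratio of each KO line to WT on chromosomes 6 and 8: bars are medians over 504 and 615 genes at 1 FPKM or more in every library, and circles are the 4 and 2 respiratory chain genes on these chromosomes. On chromosome 6 the bar and the circles are below 0 in D2A7 and above 0 in the other 3 lines, and on chromosome 8 they are above 0 in all 4.

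Once the genes of chromosomes 6 and 8 were centred on WT in each line, the log2 fold changes in *Elmsan1* KO were 0.16 for *Ndufa4*, 0.05 for *Ndufa5*, -0.11 for *Ndufa9* and 0.00 for *Ndufb7*, and none of the 4 passed. *Ndufa1* was then the only gene at an adjusted p under 0.05. Outside these chromosomes 71 respiratory genes were tested, and 1 of them passed in each knockout, *Cox6b2* in *Dnttip1* KO and *Ndufa1* in *Elmsan1* KO, both lower. *Ndufa1* is on chromosome X, where the median log2 ratio to WT of 388 genes was -0.10 in D2A7, -0.07 in D1E6, -0.07 in E2E8 and -0.05 in E2G7. What shifted the chromosomes was not tested.

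Compared with each other, the knockouts differed in no respiratory gene beyond the tests. Between the 4 *Dnttip1* KO and the 4 *Elmsan1* KO libraries, 0 of 77 genes were called (1.52% of 17600) and 0 had an adjusted p under 0.05 (0.0341%). Voom called 0 as well. An unadjusted p was under 0.05 for 6 of the 77, against 2783 of the 17600. The median log2 difference was -0.03, and for 72 genes the 95% interval lay within a 1.5-fold difference, against 57.1% of all genes. At a WT mean of at least 10 FPKM this held for 71 of 74 respiratory genes and 5141 of 5852 in all. The libraries did not overlap for 1 gene that was higher in *Dnttip1* KO (1.30%, against 5.43% of all genes). They did not overlap either for 6 genes that were lower (7.79%, against 4.05%), and these counts were not tested. The higher gene was *Cox6b1*, at 507, 521, 446 and 459 FPKM in *Dnttip1* KO against 401, 396, 441 and 436. The margin between 446 and 441 is small, and the smallest adjusted p of the 77 genes was 0.296.

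Larger differences lay between clones of the same knockout. D2A7 and D1E6 differed in 3 called genes (12.9% of 16996 genes were called), and 15 were higher and 7 lower in D2A7 at an adjusted p under 0.05 (23.3% and 17.4%). E2E8 and E2G7 differed in 2 called genes (13.7% of 16727), and 14 were higher and 11 lower in E2E8 (29.3% and 21.4%). In each of these counts the share of respiratory genes was below that of all genes, but level differs between the sets. At a WT mean of at least 10 FPKM, 3 of 74 respiratory genes and 361 of all 5852 were called between D2A7 and D1E6. Between E2E8 and E2G7 it was 2 of 74 and 240 of 5852. At an adjusted p under 0.05 (limma), the shares at this level were 27.0% and 49.7% between D2A7 and D1E6. Between E2E8 and E2G7 they were 32.4% and 56.9%. Both are comparisons of 2 libraries with 2.

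*Cox7a1* (chr7:30969190-30971047, NCBIM37), the muscle isoform of a small complex IV subunit, was called in both pairs. Its level was 15.5 and 13.1 FPKM in WT, 30.7 and 33.6 in D2A7, 16.3 and 17.2 in D1E6, 10.7 and 9.41 in E2E8, and 16.6 and 17.3 in E2G7. D2A7 stood above and E2E8 below all other lines, whereas D1E6 and E2G7 were close to each other and just above WT. D2A7 exceeded D1E6 by 0.94 ± 0.06 on the log2 scale (adjusted p = 0.000724), and E2E8 was below E2G7, at -0.75 ± 0.07 (adjusted p = 0.00184). Against WT the log2 fold change was 0.70 ± 0.34 in *Dnttip1* KO (adjusted p = 0.242) and -0.12 ± 0.27 in *Elmsan1* KO (adjusted p = 0.808). Both *Dnttip1* KO clones were above WT by very unequal amounts, at log2 ratios of 1.17 and 0.23, whereas the *Elmsan1* KO clones lay on either side of WT, at -0.50 and 0.25. The 4 muscle markers summed to 0.0331 to 0.112 FPKM over all libraries, *Myh6* was highest in D2A7 at 0.0602 and 0.0674 FPKM, and their part in the result was not tested.

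*Cox6b2* (chr7:4703396-4704696) was called between the *Elmsan1* KO clones. E2E8 had 68.5 and 68.7 FPKM, above WT at 54.3 and 55.5, whereas E2G7 had 39.1 and 39, below WT. The log2 difference was 0.81 ± 0.03 (adjusted p = 0.000503). In the *Elmsan1* KO group as a whole the log2 fold change was therefore -0.08 ± 0.28 (adjusted p = 0.875), and E2G7 was as low as both *Dnttip1* KO clones.

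*Ndufa4* and *Ndufa5* were called between the *Dnttip1* KO clones. *Ndufa4* had 318 and 321 FPKM in D2A7 and 555 and 534 in D1E6, a log2 difference of -0.77 ± 0.04 (adjusted p = 0.000562). *Ndufa5* had 33.8 and 34.7 FPKM in D2A7 and 51.5 and 52.9 in D1E6, a log2 difference of -0.61 ± 0.03 (adjusted p = 0.000591). D2A7 lay near or below WT for both and D1E6 above, as the genes of chromosome 6 did. With chromosomes 6 and 8 centred, the differences were -0.26 (adjusted p = 0.00802, limma) and -0.10 (adjusted p = 0.0686), and neither reached 1.5-fold.

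**Figure D5:**
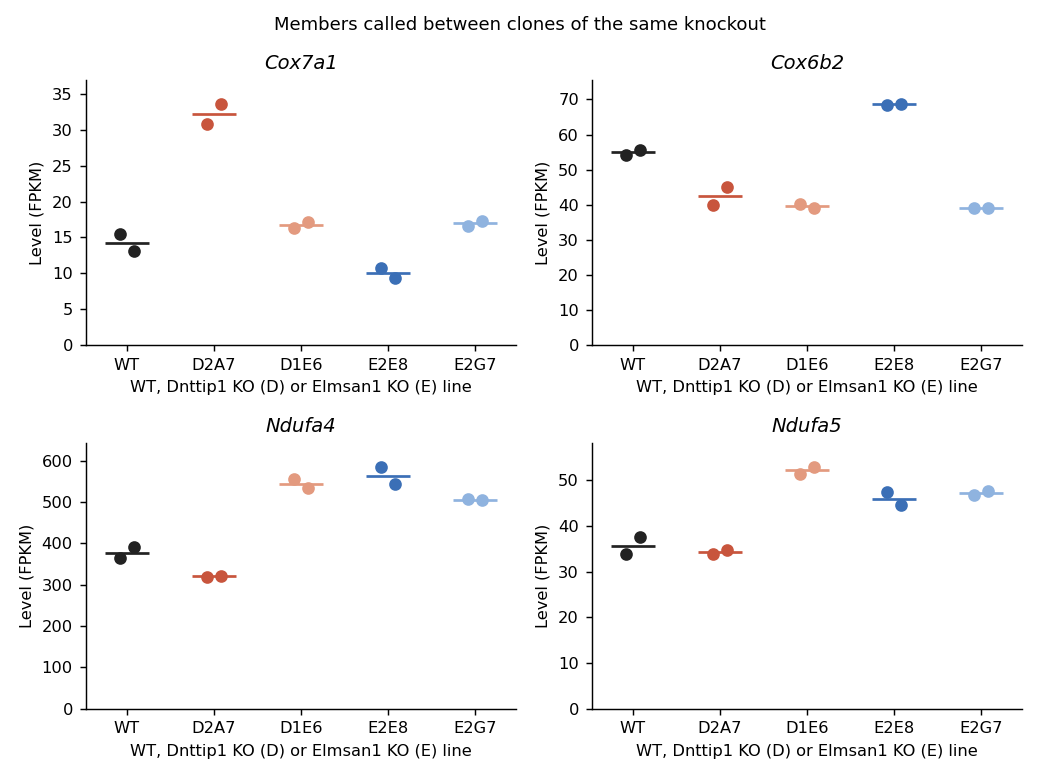
Level in FPKM of *Cox7a1*, *Cox6b2*, *Ndufa4* and *Ndufa5* in each library of the 5 lines, with points for libraries and lines for means of 2. *Cox7a1* is highest in D2A7 (30.7 and 33.6), *Cox6b2* is highest in E2E8 (68.5 and 68.7), and *Ndufa4* and *Ndufa5* are higher in D1E6, E2E8 and E2G7 than in WT and D2A7.

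By complex, the differences between clones leaned one way in places. In complex IV, 11 of 13 tested genes were higher in D2A7 than in D1E6, 7 of them at an adjusted p under 0.05, including *Cox6a1* at a log2 difference of 0.23 ± 0.06 and *Cox6b1* at 0.18 ± 0.04. In complex V, 14 of 15 were lower in E2E8 than in E2G7, 5 of them past the threshold, including *Atp5k* at -0.29 ± 0.07, *Atp5g3* at -0.28 ± 0.05 and *Atp5g1* at -0.27 ± 0.03. In complex I, 23 of 37 were higher in E2E8 than in E2G7, 10 of them past the threshold, and 1 was lower past it. Among all 5852 genes with a WT mean of at least 10 FPKM, 23.0% were higher and 26.7% lower in D2A7 at that threshold, and 20.5% were higher and 36.4% lower in E2E8. The 5 of 15 lower in complex V (33.3%) lay near the share of all genes at this level. The 10 of 37 higher in complex I (27.0%) and the 7 of 13 in complex IV (53.8%) lay above theirs. In the other direction the shares were 0% in complex V, 2.70% in complex I and 0% in complex IV, each below that of all genes. Past the threshold or not, 62.2% of complex I was higher in E2E8, against 39.1% of all genes at this level. In complex V 93.3% was lower, against 60.9%. These shares rest on few genes and were not tested. *Cox7b2* was higher in D2A7 than in D1E6 (0.86 ± 0.22) and in E2E8 than in E2G7 (0.88 ± 0.23), with adjusted p of 0.0372 and 0.0316, on few fragments, and was not called. The study describes its libraries as biological replicates, and how the cultures of a clone were kept apart was not given in the sources used here.

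The shares of isoforms followed the same clones. *Cox6b2* made up 7.65% ± 0.481 of the COX6B pair in D2A7, 8.08% ± 0.287 in D1E6, 14.7% ± 0.143 in E2E8 and 8.18% ± 0.0570 in E2G7 (SD, n = 2), against 11.6% in WT. *Cox7a1* made up 8.49% ± 0.671 of the COX7A set in D2A7, 4.87% ± 0.277 in D1E6, 3.05% ± 0.130 in E2E8 and 4.68% ± 0.148 in E2G7, against 4.0% in WT. *Cox6a1*, *Cox7b*, *Cox8a* and *Ndufa4* each held 98.9% to 100% of their sets in every library. The c-ring genes kept shares of 11.5% to 13% for *Atp5g1*, 46.4% to 52.2% for *Atp5g2* and 36.2% to 40.9% for *Atp5g3*.

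Apart from these few, the respiratory genes varied little between lines. For the 75 that reached 1 FPKM in every library, the median SD between line means was 0.0783 on the log2 scale, against 0.161 for all 11281 such genes, while the SD between libraries of a line was 0.0493 and 0.0515. The widest spread between lines was that of *Cox7a1* (0.605), followed by *Ndufa4* (0.359), *Cox6b2* (0.351) and *Ndufa5* (0.266). This difference in spread is a description, and level differs between the sets.

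Subunits and carriers that the rule does not reach were measured through a list of 11, of which 9 were tested. *Usmg5*, a small ATP synthase subunit, was lower in *Dnttip1* KO (-0.26 ± 0.05, adjusted p = 0.0343) and in *Elmsan1* KO (-0.36 ± 0.07, adjusted p = 0.0239), with 272 and 261 FPKM in WT and 191 to 232 in the knockouts. *Cycs*, cytochrome c, was higher in *Elmsan1* KO (0.47 ± 0.06, adjusted p = 0.0109), at 29.6 and 31.8 FPKM in WT and 39.9 to 44.8 in the knockout. *Cycs* lies on chromosome 6, and it was at 26.5 and 27.8 FPKM in D2A7 and 47.4 and 48.0 in D1E6. *Cox4i1*, the ubiquitous subunit 4 of complex IV on chromosome 8, was at 0.38 ± 0.09 in *Dnttip1* KO and did not pass (adjusted p = 0.0561).

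The 13 subunit genes encoded in mitochondrial DNA were set beside the nuclear ones. In *Dnttip1* KO all 13 were above WT in every library, against 21.1% of all genes, with a median log2 fold change of 0.38. At an adjusted p under 0.05, 4 were higher (30.8%, against 5.18% of all genes), and 1 was called (6.5% of all genes were). *mt-Nd4*, a proton-pumping core subunit of complex I, was at 70.2 and 73.0 FPKM in WT and at 112, 128, 105 and 104 in *Dnttip1* KO (0.64 ± 0.09, adjusted p = 0.0156). *mt-Nd6* (0.38 ± 0.06, adjusted p = 0.0164) and *mt-Nd4l* (0.40 ± 0.09, adjusted p = 0.0446) were among the others that passed. With an estimated correlation within lines 0 of the 13 passed (smallest adjusted p = 0.136, limma), and 0 without either WT library (0.0873 and 0.108). In *Elmsan1* KO their median was -0.01 and 0 passed, at a smallest adjusted p of 0.200, with 0 of 13 at an unadjusted p under 0.05. The sum of the 13 was 10614 ± 602 FPKM in WT (n = 2), 13741 ± 735 in *Dnttip1* KO and 11158 ± 923 in *Elmsan1* KO (n = 4). These transcripts took 1.68% to 2.95% of all FPKM, against 1.31% to 1.59% for the 80 nuclear genes.

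Factors that assemble the complexes were mostly level. Of 48 tested, 2 were higher and 1 lower in *Dnttip1* KO at an adjusted p under 0.05, and 2 were higher and 2 lower in *Elmsan1* KO. These shares of 4.17% and 2.08%, and of 4.17% and 4.17%, are no larger than those of all genes given above. *Pet100*, listed as *2900053A13Rik* and needed to assemble complex IV, was higher in both (0.52 ± 0.06, adjusted p = 0.00948, and 0.54 ± 0.12, adjusted p = 0.0423), and it lies on chromosome 8. Among 13 genes of the citric acid cycle, 1 was higher in *Elmsan1* KO, *Suclg1* on chromosome 6 (0.29 ± 0.05, adjusted p = 0.0242), and 0 passed in *Dnttip1* KO, where 2 had an unadjusted p under 0.05. Among 11 regulators tested, the coactivator *Ppargc1b* was higher in *Elmsan1* KO (0.55 ± 0.12, adjusted p = 0.0332), and 0 passed in *Dnttip1* KO, where 3 had an unadjusted p under 0.05. Of 84 cytosolic ribosomal protein genes, 2 were higher in *Dnttip1* KO, and 2 were higher and 1 lower in *Elmsan1* KO. Of 79 mitochondrial ribosomal protein genes tested, 1 was lower in *Dnttip1* KO, and 5 were higher and 1 lower in *Elmsan1* KO. The 5 are 6.33%, near the 5.61% of all genes, and the other ribosomal shares were 0% to 2.38%, below those of all genes, while 1 gene of 11 or 13 is too few to set against a share. Outside the ribosomal lists and the cell markers, 8 genes passed in each knockout, those of mitochondrial DNA included. With an estimated correlation within lines or without either WT library, 0 of them did. The cell markers were left out of these alternatives. Of 9 mESC markers tested, 2 passed in *Dnttip1* KO (22.2%, against 9.47% of all genes) and 4 in *Elmsan1* KO (44.4%, against 10.5%). *Sox2* was lower in both (-0.38 and -0.46), and *Klf4* (-0.38) and *Nanog* (-0.35) were lower in *Elmsan1* KO. *Zfp42*, on chromosome 8, was higher in both (0.50 and 0.36). In *Dnttip1* KO the neural marker *Map2*, listed as *Mtap2* (-1.05), and the mesoderm marker *T* (-1.16) also passed, both lower and at low levels.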

How the data were processed

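The authors sequenced stranded total RNA depleted of ribosomal RNA as read pairs, used NCBIM37 as the genome and HT-seq for gene counts, and deposited 1 table of FPKM values for all 10 libraries. The methods name GENCODE vM20, but GENCODE vM1 holds 97.2% of the identifiers in the table and gave positions, exon lengths and gene types here. Groups follow the labelled genotype and clone. FPKM times exon length gave whole multiples of 1 step per library, within 0.02, for 98.1% to 98.4% of the values under 100 steps, and hence the fragments and library totals.

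Each library was divided by its median ratio to the geometric mean over 11270 genes that reached 1 FPKM in every library. Genes that reached 0.1 FPKM in 2 or more libraries of a comparison entered limma 3.58.1 (R 4.3.3) as log2(FPKM + 0.1), with a variance trend, two-sided, and p-values were adjusted over every gene fitted by Benjamini-Hochberg. Fold changes of genes near 0.1 FPKM are understated on this scale. With 2 libraries against 4, an exact permutation test of 1 gene could not go below p = 0.0667. The fits were tested on simulated data. Promoters came from RefSeq (GRCm38.p6). Figures were made with Python 3.11.15 and matplotlib 3.10.9.

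The members and lists were chosen with earlier results of these data known. Genes named are those called in any comparison, the highest, the lowest and the 2 smallest p-values of each complex, the isoform sets, complex II, and up to 3 genes per list. Of the cell markers, those that passed are named as well. *Atp5l*, *Cox7c*, *Cox5b*, *Ndufb4*, *Ndufs5* and *Ndufs3* (shared sequence), *Ndufa1*, *Ndufa9* and *Ndufb7* (adjusted p), *Ndufb2* and *Ndufa13* (chromosomes) are named besides. The alternatives were a pseudocount of 1 or 0.01, no filter or a mean of at least 1 FPKM, quantile normalization or FPKM as deposited, all libraries in 1 fit, no variance trend, an estimated correlation within lines, a replicate block, voom on recovered fragments, only members outside chromosomes 6 and 8, an adjusted p under 0.05 with a fold change of at least 1.5, each library left out, and, chosen after seeing the data, chromosomes 6 and 8 centred on WT, complex I summed without *Ndufa4*, levels per length of the shortest coding transcript, and the other lists with an estimated correlation or without a WT library.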

Additional observations from a re-analysis of the deposited data

Results flagged for a closer look

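Between clones of the same knockout, 4 members were called. *Cox7a1* was higher in D2A7 than in D1E6, at a log2 difference of 0.94, and lower in E2E8 than in E2G7, at -0.75. *Ndufa4* and *Ndufa5* were lower in D2A7 than in D1E6, at -0.77 and -0.61, and the median of the genes of chromosome 6 was lower in D2A7 too. *Cox6b2* was higher in E2E8 than in E2G7, at 0.81. Each difference was tested with limma, and its libraries and adjusted p are given above. *Cox7a1* and *Cox6b2* both lie on chromosome 7, where the median log2 ratio to WT of 845 genes was between -0.04 and 0.03 in the 4 lines.

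Of 84 groups of 4 libraries that were checked, 2 held a library that stood apart from the other 3, where chance gives about 1 in 20. In *Elmsan1* KO, *Cox7a2* was at 186 FPKM in E2E8 replicate 2, against 202 to 205 in the others, and *Sdha* was at 86.3 FPKM in E2E8 replicate 1, against 82.2 to 82.7. Neither gene passed a test against WT.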

How the results depend on the processing

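No alternative called a member in *Elmsan1* KO against WT. In *Dnttip1* KO 1 member (*Cox7a1*), and between the knockouts 2 (*Cox7a1* and *Cox7b2*), were called only with all libraries in 1 fit. At an adjusted p under 0.05, that fit, whose error is the spread within lines, passed 27 members in *Dnttip1* KO (47.5% of all genes passed) and 27 in *Elmsan1* KO (48.2%). With an estimated correlation within lines 0 passed in either (0.327% and 0.372%), and 0 with the replicate block. Among the lines of either comparison with WT, same-numbered libraries did not deviate together (correlations from -0.193 to 0.0963), so the block pairs nothing there. Of all 10 pairs of lines, 1 was over 0.1, D2A7 with E2E8 (0.335), which meet only in the comparison between the knockouts. In *Dnttip1* KO, a pseudocount of 1 and a mean of at least 1 FPKM each passed 2. In *Elmsan1* KO, no filter passed 3, no variance trend 2, voom 2, and members outside chromosomes 6 and 8, like their centring, 1. Leaving out 1 library passed 0 to 1 in *Dnttip1* KO and 0 to 3 in *Elmsan1* KO. Between D2A7 and D1E6 both chromosome alternatives called 1 in place of 3, and leaving out a library 3 to 4. Between E2E8 and E2G7 leaving out a library called 2 to 3. With the centring, *Ndufa9* turned to -0.11 in *Elmsan1* KO, and *Ndufa9* and *Ndufb2* turned to 0.10 and 0.11 between D2A7 and D1E6. *Cox6b2* in *Elmsan1* KO ran from -0.22 to 0.0512 with 1 library left out, and was above 0 without either E2G7 library. Median log2 fold changes stayed between -0.07 and -0.02. Where not stated, the cause was not tested. Each knockout rests on 2 clones. Depth limits *Cox6a2*, *Cox8b*, *Cox8c*, *Cox7b2* and *Ndufa4l2* most, with 3 to 305 fragments in all.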
